A study of Homo sapiens with 9 samples.

Results

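β-Catenin, the TCF/LEF factors and the nuclear proteins that act with them were described at the RNA level in a colon cancer cell line and in its derivatives that express BASP1. The genes were chosen by name for their role, with earlier results of these data known: CTNNB1, TCF7, LEF1, TCF7L1, TCF7L2, BCL9, PYGO2, CTNNBIP1, TLE1 and TBL1XR1, which are 10 of the 63677 Ensembl identifiers counted. Each of the 10 had counts in every library and passed the filter on low counts in all 3 comparisons.

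In canonical WNT signaling, β-catenin that escapes its cytoplasmic destruction complex enters the nucleus, binds a TCF/LEF factor on DNA and recruits coactivators through BCL9 and Pygopus. Without nuclear β-catenin, the same factors hold Groucho/TLE corepressors, and TBL1-type proteins exchange corepressor for coactivator complexes. In most colorectal tumors the destruction complex is defective because of a truncated APC protein, as in SW480, and the program that normally maintains crypt stem cells stays on.

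SW480 is an established line from a human colorectal adenocarcinoma, into which BASP1, a membrane-associated protein that also acts as a nuclear corepressor, was brought back. The parental cells were not transfected, and no vector control was among the sequenced lines. SW480-B carries a plasmid with the BASP1 coding region under the CMV promoter and is a single line picked after geneticin selection. SW480-Bsg, titled so in GEO and named SW480-gRNA-B-all in the study, carries dCas9-VP64 and the MS2-P65-HSF1 activator with pooled guide RNAs directed to the BASP1 promoter. Its precursor was cloned from a single cell before the guides were added, and the guides were selected with puromycin. Clonal origin, vector and selection therefore cannot be told apart from BASP1 in either derivative. All samples, SW480 included, have the same entry for treatment in GEO, BASP1 activation, and the lines were told apart by their titles.

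RNA from each line was sequenced as 3 libraries (n = 3), with 25238831 to 29355669 counts on genes per library. BASP1 was at 0.688 to 11.3 counts-per-million (CPM) in SW480 and at 166.5 to 308 CPM in the derivatives, so every library fit its label. Of the colon epithelial markers, KRT8, KRT18 and EPCAM were abundant in all lines, CDX1 and KRT20 were below 1 CPM in every line mean, and CDH17 had 0 counts in all 6 libraries of the derivatives. Summed markers of fibroblasts (2.95 to 11 CPM), blood cells (at most 2.92 CPM) and endothelial cells (at most 4.33 CPM) stayed low, with HBB and COL3A1 at 0 throughout. Neuronal markers summed to 4.35 to 44.2 CPM in SW480, mostly SYP, and to 2.00 to 11.7 CPM in the derivatives, and RBFOX3 was at 0. The labels do not say whether the replicates came from separate cultures, so that p-values measure the spread between these libraries. Replicates 2 and 3 of SW480-Bsg were closer to each other than any other replicates: 0% of genes differed by more than 2-fold between them, against 6.36% to 25.3% in other pairs of a line. They still differed beyond counting noise, with a chi-square of 3.41 per gene, and were kept as separate libraries.

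Calls required an adjusted p under 0.05 (edgeR quasi-likelihood F test, Benjamini-Hochberg adjustment over all genes tested) together with a change above 2-fold. In SW480-Bsg against SW480, 2 of the 10 genes, CTNNB1 and LEF1, were called lower and 0 were called higher, where 4.66% of all 16100 genes tested were called lower and 1.89% higher. DESeq2 called TLE1 higher as well, and 5 of the 10 had an unadjusted p under 0.05. In SW480-B against SW480 none of the 10 was called by edgeR, with 2 at an unadjusted p under 0.05 and 1 called by DESeq2. There, 1.25% of 16106 genes tested were called lower and 0.0931% higher. In SW480-Bsg against SW480-B, LEF1 and TBL1XR1 were called lower and CTNNBIP1 higher, where 4.37% and 2.31% of 15846 genes tested were called in those directions. The comparisons of both derivatives with SW480 share the SW480 libraries. A change in a bulk sample can be fewer cells with the RNA or less RNA per cell, and these cannot be told apart here.

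**Figure D1:**
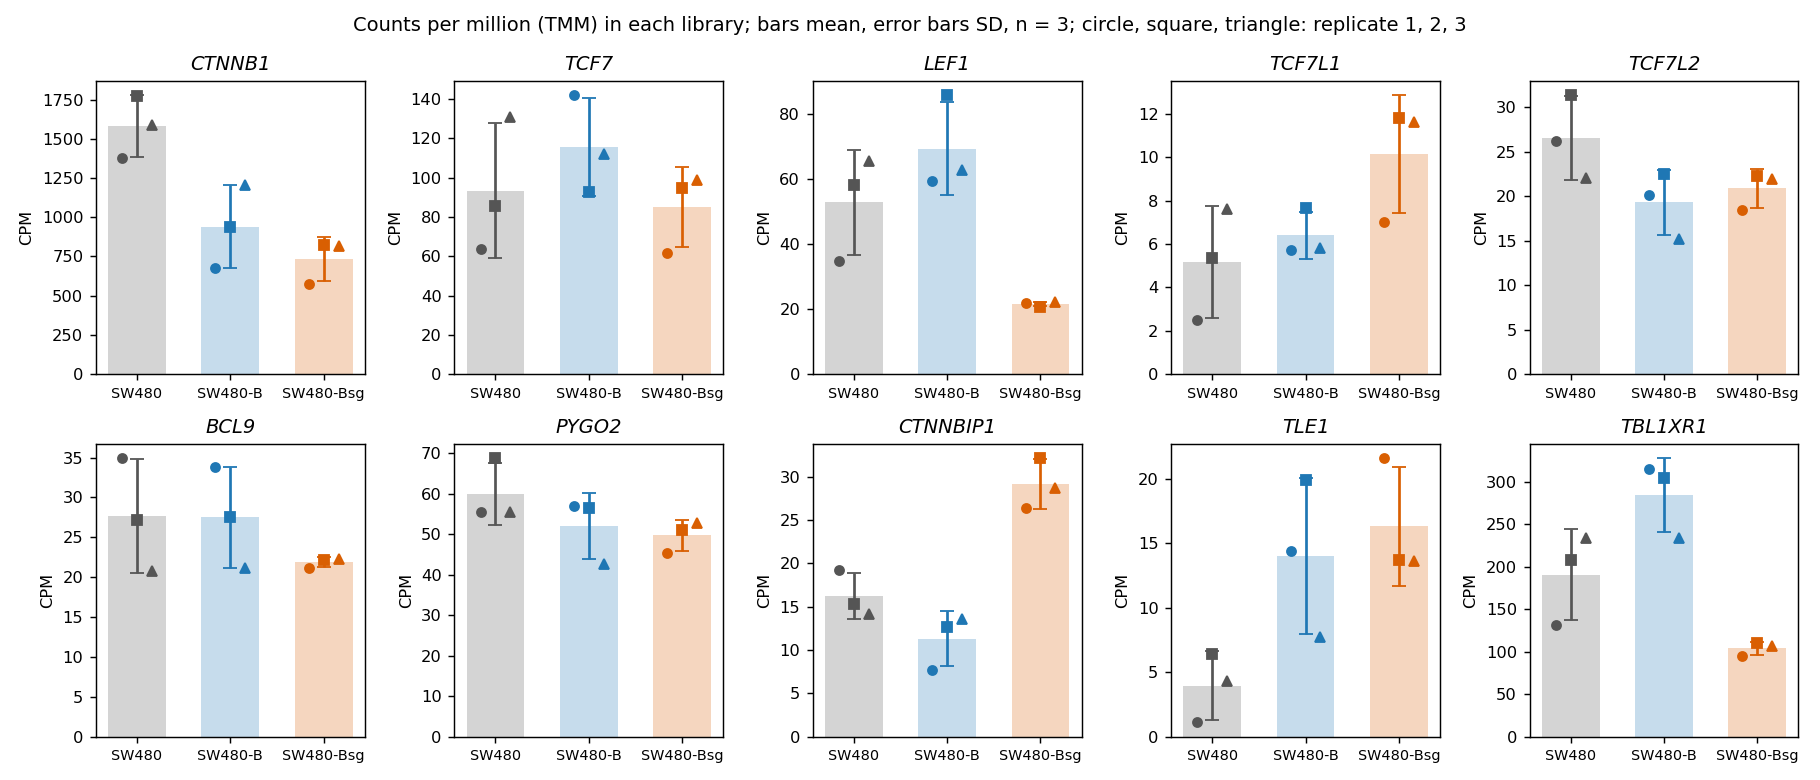
TMM-scaled CPM of the 10 genes in each library, with 1 panel per gene, linear axes from 0, bars for the mean and error bars for the SD of 3 libraries. CTNNB1 is lower in all libraries of both derivatives than in SW480, whereas LEF1 and TBL1XR1 are lowest in SW480-Bsg and CTNNBIP1 is highest there.

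The sequences before the transcription starts of CTNNB1 and TBL1XR1 are shown because CTNNB1 fell in SW480-Bsg against SW480 and TBL1XR1 fell against SW480-B. Each stretch is the 250 bases before the start of the canonical transcript in GRCh37, read on the strand of the gene: chr3:41240746-41240995 (plus strand, CTNNB1) and chr3:176915271-176915520 (minus strand, TBL1XR1). Capitals mark the GC box GGGCGG or its reverse complement CCGCCC, where matches may overlap.
CTNNB1: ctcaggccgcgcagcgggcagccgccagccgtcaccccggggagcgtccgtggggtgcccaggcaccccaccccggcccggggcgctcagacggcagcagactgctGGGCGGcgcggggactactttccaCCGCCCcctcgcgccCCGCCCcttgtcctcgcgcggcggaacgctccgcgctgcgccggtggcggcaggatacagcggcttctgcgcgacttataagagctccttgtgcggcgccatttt
TBL1XR1: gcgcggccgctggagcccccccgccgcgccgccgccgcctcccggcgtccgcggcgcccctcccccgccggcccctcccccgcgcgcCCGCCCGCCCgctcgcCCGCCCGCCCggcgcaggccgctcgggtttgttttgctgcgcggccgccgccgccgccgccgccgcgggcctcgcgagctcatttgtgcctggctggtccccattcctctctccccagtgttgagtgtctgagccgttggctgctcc
CTNNB1 held 3 GC boxes and TBL1XR1 held 4. Over the window from 250 bases before to 50 after the start, 8 of the 10 genes held a GC box on either strand, beside 61.4% of 19874 protein-coding genes in the same annotation.

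The TCF/LEF core CTTTGA or its reverse complement TCAAAG was present in the same 300-base window of 1 of the 10 genes, TCF7, beside 10.4% of all 19874 windows. The site starts 17 bases into the transcript and lies in this stretch at chr5:133450376-133450405 (plus strand), with the core in capitals.
TCF7: ggccggcggcgcCTTTGAtgttccgacccg
The 9 others did not hold these letters in the window. GC content of the 10 windows ranged from 53% in BCL9 to 80.7% in CTNNBIP1. Only BCL9 lay below the median of 63.7% over all windows. No binding data were analysed here, and a match is only a description of the letters.

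CTNNB1 (GRCh37 chr3:41236232-41301587, plus strand) encodes β-catenin itself. SW480 libraries 1, 2 and 3 held 1379, 1776 and 1589 CPM of CTNNB1. SW480-B held 675, 941 and 1205 CPM, and SW480-Bsg held 574.5, 820 and 816 CPM. No library of either derivative reached the lowest SW480 library, while both derivatives overlapped. The log2 fold change was −1.14 (SE 0.219, adjusted p = 0.0294, edgeR quasi-likelihood F test, Benjamini-Hochberg adjusted) in SW480-Bsg against SW480, a 2.21-fold lower level. In SW480-B it was −0.74 (SE 0.294, adjusted p = 0.277 by the same test) and was not called. Between the derivatives it was −0.36 (SE 0.253, adjusted p = 0.428). The call against SW480 depended on single libraries: with 1 library left out, it was kept without SW480 replicate 1 or 3 and lost without SW480 replicate 2 or without any replicate of SW480-Bsg, at log2 fold changes from −1.21 to −0.99. It was also lost when SW480-Bsg replicates 2 and 3 were added up (−1.21) and when counts were offset for GC and length (−0.97). Per length of its exons, CTNNB1 was the most abundant of the 10 genes in each line, at 548 ± 74.5 (SW480), 317 ± 75.7 (SW480-B) and 256 ± 43.9 (SW480-Bsg) TPM (mean ± SD, n = 3).

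The 9 tested neighbors of CTNNB1, which start within 1 Mb of it on chromosome 3, had log2 fold changes with a median of 0.06 in SW480-Bsg against SW480, and none of them was called. In SW480-B against SW480 their median was −0.06, also with 0 calls. The genes whose centered log2(CPM + 0.5) values over the 9 libraries lay closest to those of CTNNB1 were RNF144A, STMP1, RBMX, CGREF1 and EEPD1, with root mean square differences of 0.148 to 0.180.

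The 4 TCF/LEF genes encode the DNA-binding partners of β-catenin. LEF1 (chr4:108968701-109090112, minus strand), an activator that is itself a β-catenin target in colon cancer, was the only member of this family called in any comparison. Its levels were 34.8, 58.2 and 65.4 CPM in SW480, 59.4, 85.8 and 62.8 CPM in SW480-B, and 21.9, 20.8 and 22.0 CPM in SW480-Bsg. The 3 libraries of SW480-Bsg lay below all others and close together, while SW480 and SW480-B overlapped. LEF1 was 2.51-fold lower in SW480-Bsg than in SW480 (log2 fold change −1.33, SE 0.238, adjusted p = 0.0257, edgeR quasi-likelihood F test, Benjamini-Hochberg adjusted) and 3.23-fold lower than in SW480-B (−1.69, SE 0.184, adjusted p = 0.00231). The difference between SW480-B and SW480 was 0.40 (SE 0.272, adjusted p = 0.513). Against SW480-B the LEF1 call was kept in all 6 fits that left out a library, at −1.78 to −1.52. Against SW480 it was kept without SW480 replicate 1 or 3 and lost in the other 4, at −1.53 to −1.13, and when SW480-Bsg replicates 2 and 3 were added up (−1.30).

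The antisense transcript LEF1-AS1 starts 1.4 kb from the LEF1 start on the opposite strand, and because the strand setting of the counting is not given in the sources used here, reads of the overlap cannot be assigned with certainty. LEF1-AS1 was low: 1.11, 0.972 and 1.92 CPM in SW480, 6.07, 2.37 and 3.95 CPM in SW480-B, and 0.474, 0.339 and 0.373 CPM in SW480-Bsg. The 3 lines did not overlap, with SW480-B highest. It was called lower in SW480-Bsg against SW480 (log2 fold change −1.78, SE 0.418, adjusted p = 0.0481, edgeR quasi-likelihood F test, Benjamini-Hochberg adjusted), a call kept in 1 of 6 fits that left out a library. Against SW480-B its log2 fold change was −3.38 (SE 0.459, adjusted p = 0.00505), called in 6 of 6. In SW480-B against SW480 it was 1.64 (SE 0.51, adjusted p = 0.186), called by DESeq2 only. Of the 8 tested neighbors of LEF1 within 1 Mb, LEF1-AS1 was the only one called in SW480-Bsg against SW480, and their median log2 fold change was −0.62.

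TCF7 (chr5:133450372-133487556, plus strand), which encodes the factor also known as TCF1, was not called in any comparison. It was at 63.5, 85.7 and 131 CPM in SW480, 142, 92.6 and 112 CPM in SW480-B and 61.7, 94.5 and 99.0 CPM in SW480-Bsg, and all 3 lines overlapped. Its log2 fold changes were −0.17 (SE 0.294), 0.32 (SE 0.301) and −0.46 (SE 0.238) in the comparisons of SW480-Bsg and SW480-B with SW480 and of SW480-Bsg with SW480-B. The genes with the closest pattern were SPTSSA, CTDSPL, TWSG1, GALM and CEP78, with root mean square differences of 0.147 to 0.176. Counts per gene do not separate the long forms of TCF7 and LEF1 from short forms that lack the β-catenin binding domain.

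TCF7L2 (chr10:114710006-114927437, plus strand), the main TCF factor of intestinal epithelium, was at 26.2, 31.4 and 22.1 CPM in SW480, 20.1, 22.5 and 15.2 CPM in SW480-B and 18.4, 22.3 and 22.0 CPM in SW480-Bsg. Both derivatives overlapped SW480, with log2 fold changes of −0.39 (SE 0.196) for SW480-Bsg and −0.46 (SE 0.258) for SW480-B, neither called. TCF7L1 (chr2:85360515-85537510, plus strand), known mainly as a repressor of WNT targets in stem cells, was the lowest of the family at 2.49, 5.35 and 7.64 CPM in SW480, 5.73, 7.67 and 5.82 CPM in SW480-B and 7.04, 11.8 and 11.6 CPM in SW480-Bsg. Replicates 2 and 3 of SW480-Bsg lay above every other library and replicate 1 did not. TCF7L1 was not called, at 0.94 on the log2 scale (SE 0.429, adjusted p = 0.201, edgeR quasi-likelihood F test, Benjamini-Hochberg adjusted) against SW480 and 0.66 (SE 0.275, adjusted p = 0.187) against SW480-B.

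Per exon length, LEF1 and TCF7 together made up most of the summed TCF/LEF level in each line. The share of LEF1 was 40.4% ± 2.7 in SW480, 45.0% ± 7.67 in SW480-B and 23% ± 4.42 in SW480-Bsg (SD, n = 3), and its highest library in the last line, 28.1%, lay below the lowest of the others, 37.6%. TCF7 held 37.7% ± 4.79, 40.1% ± 8.93 and 46.8% ± 4.06 in the same order, TCF7L1 4.59% ± 1.24, 5.03% ± 0.666 and 12.7% ± 1.55, and TCF7L2 17.3% ± 5.96, 9.92% ± 1.25 and 17.5% ± 1.21. Thus TCF7L1 took a higher share in every SW480-Bsg library (10.9% to 13.9%) than in any other (at most 5.72%). LEF1 and TCF7 did not differ beyond their spread in SW480, and with the length of the longest transcript TCF7 (50 TPM) ranked above LEF1 (42.5 TPM) there. The summed level was 97.8 ± 21.9 TPM in SW480, 115 ± 12.2 in SW480-B and 73.0 ± 10.3 in SW480-Bsg, and SW480 overlapped both derivatives. Shares of a sum depend on each other, and no test was run on them.

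**Figure D2:**
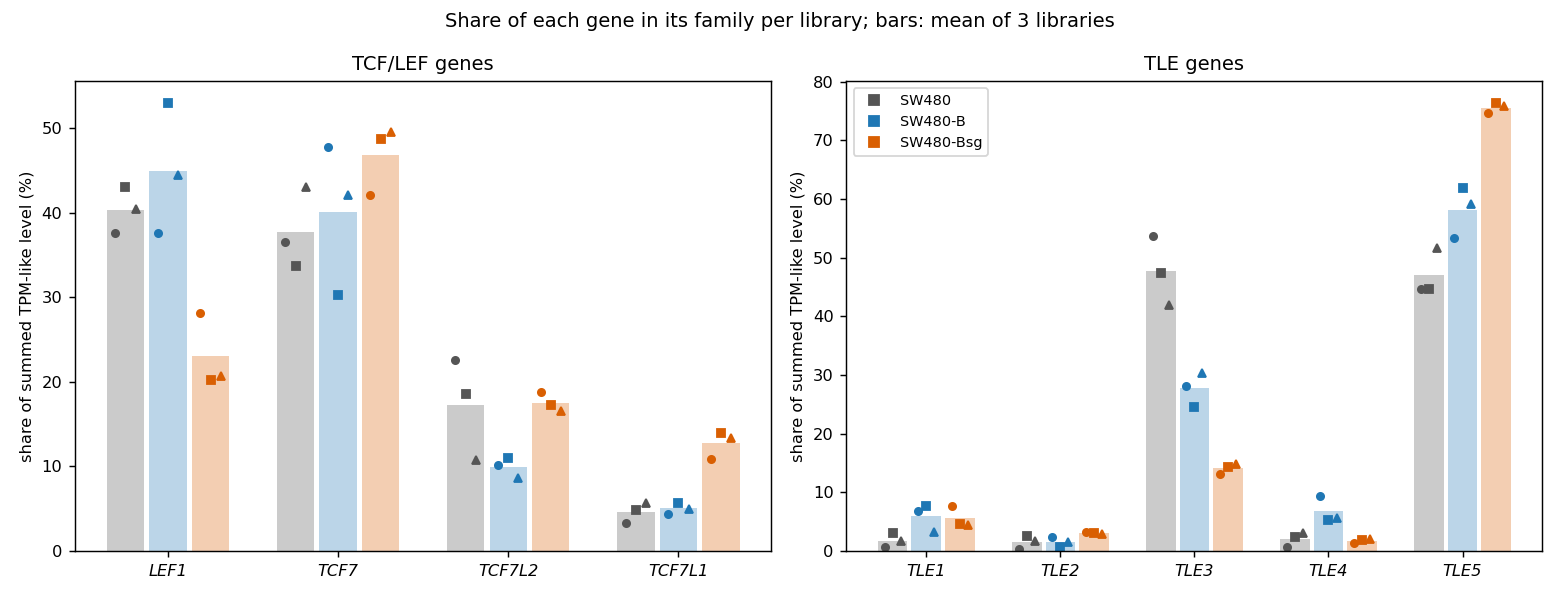
Share of each TCF/LEF gene (left) and each TLE gene (right) in the summed per-length level of its family, in percent, with points for libraries and bars for the mean of 3 libraries. In SW480-Bsg the share of LEF1 is lower and that of TCF7L1 higher than in the other lines, and among TLE genes TLE5 holds 75.6% on average.

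BCL9 (chr1:147013271-147098017, plus strand) binds β-catenin and joins it to PYGO2 (chr1:154929502-154936329, minus strand), a reader of methylated histone H3. BCL9 was at 35.0, 27.2 and 20.8 CPM in SW480, 33.9, 27.5 and 21.2 CPM in SW480-B and 21.2, 22.2 and 22.3 CPM in SW480-Bsg. PYGO2 was at 55.5, 68.8 and 55.5 CPM in SW480, 56.9, 56.4 and 42.6 CPM in SW480-B and 45.4, 51.0 and 52.7 CPM in SW480-Bsg. For BCL9 all lines overlapped, and for PYGO2 the libraries of SW480-Bsg lay just below those of SW480. Neither was called in any comparison, and their 6 log2 fold changes lay between −0.39 and −0.01. BCL9L, a paralog of BCL9, had a log2 fold change of 0.43 (SE 0.145, adjusted p = 0.109, edgeR quasi-likelihood F test, Benjamini-Hochberg adjusted) in SW480-Bsg against SW480 and was not called either. Of these and PYGO1, 1 of 4 had an unadjusted p under 0.05 there and 0 in SW480-B against SW480 or between the derivatives, and DESeq2 called 0 in each. PYGO1 was at most at a line mean of 1.29 CPM, and PYGO2 contributed nearly all of the summed Pygopus level.

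Among nuclear inhibitors, CTNNBIP1 (chr1:9908334-9970394, minus strand) encodes ICAT, a small protein that blocks the binding of β-catenin to TCF factors. Its levels were 19.3, 15.3 and 14.2 CPM in SW480, 7.73, 12.7 and 13.6 CPM in SW480-B and 26.4, 32.2 and 28.7 CPM in SW480-Bsg. The lines did not overlap, with SW480-B lowest and SW480-Bsg highest. CTNNBIP1 was called in the comparison of the derivatives, 2.56-fold higher in SW480-Bsg (log2 fold change 1.36, SE 0.238, adjusted p = 0.0123, edgeR quasi-likelihood F test, Benjamini-Hochberg adjusted). That call was lost without SW480-Bsg replicate 2 (1.30) or 3 (1.39), with adjusted p up to 0.0591, and with both summed (1.34). Against SW480, the values were 0.79 (SE 0.205, adjusted p = 0.0597) for SW480-Bsg and −0.52 (SE 0.312, adjusted p = 0.453) for SW480-B. Of 20 tested neighbors within 1 Mb, 3 were called lower and 0 higher in SW480-Bsg against SW480, and their median was −0.15. None of the other tested genes of the list of nuclear inhibitors and corepressors (9 tested with CTNNBIP1, among them CBY1, CTBP1, CTBP2, HDAC1, HDAC2 and CHD8) was called in any comparison. With CTNNBIP1 included, 3 of 9 had an unadjusted p under 0.05 in SW480-Bsg against SW480, 0 in SW480-B against SW480 and 2 between the derivatives, and DESeq2 called 0, 0 and 1.

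TLE1 (chr9:84198598-84304462, minus strand) encodes a Groucho corepressor that TCF/LEF factors recruit in the absence of β-catenin. It was at 1.11, 6.46 and 4.35 CPM in SW480, 14.4, 19.9 and 7.77 CPM in SW480-B and 21.7, 13.7 and 13.6 CPM in SW480-Bsg. Every library of both derivatives exceeded every SW480 library, but SW480 replicate 1 held only 34 counts and the spread was wide. The log2 fold changes, 2.02 (SE 0.582, adjusted p = 0.0775, edgeR quasi-likelihood F test, Benjamini-Hochberg adjusted) in SW480-Bsg and 1.84 (SE 0.612, adjusted p = 0.213) in SW480-B against SW480, were not called. TLE1 was called without SW480 replicate 1 (1.59) and in the fit of all 9 libraries (2.02) for SW480-Bsg, and by DESeq2 for both lines, with 1.82 and an adjusted p of 0.0407 in SW480-B.

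Calls among the other TLE genes went in both directions. TLE3, a full-length corepressor, was at 226, 245 and 265 CPM in SW480, 144, 155 and 171 CPM in SW480-B and 88.2, 104 and 108 CPM in SW480-Bsg, with no overlap between lines. It was called lower in SW480-Bsg against SW480 (log2 fold change −1.34, adjusted p = 0.00859, edgeR quasi-likelihood F test, Benjamini-Hochberg adjusted), in 3 of 6 fits that left out a library. TLE5, formerly AES, encodes a short form that lacks the repressor-recruiting part of the long TLE proteins. It was called higher there (1.07, adjusted p = 0.0326), in 1 of 6 such fits, from 78.0, 95.8 and 135 CPM in SW480 to 208, 229.6 and 229.9 CPM. TLE4 was called lower in SW480-Bsg against SW480-B (−1.62, adjusted p = 0.00948) in 6 of 6 such fits. It was at 2.06, 8.16 and 12.4 CPM in SW480, 31.25, 21.9 and 20.7 CPM in SW480-B and 6.02, 8.745 and 9.43 CPM in SW480-Bsg. SW480-B thus lay above both other lines, and TLE4 in SW480-Bsg against SW480 was at 0.07 (adjusted p = 0.948). TLE2 was not called by edgeR as fitted here (1.37, adjusted p = 0.237 against SW480, and 1.36, adjusted p = 0.0699 against SW480-B). In the latter comparison, 3 of 8 alternative settings called TLE2 higher. Over the 5 TLE genes, DESeq2 called 3, 2 and 2 in SW480-Bsg and SW480-B against SW480 and between the derivatives, where edgeR called 2, 0 and 1. The median of the 5 TLE genes was 1.07, the value of TLE5, in SW480-Bsg and 0.43 in SW480-B against SW480. Over all genes tested the medians were −0.05 and −0.0039. In SW480, TLE1 and TLE2 were at 3.06 and 2.63 TPM on average, against 79 and 79.3 TPM for TLE3 and TLE5. In the summed per-length level of the family, TLE3 went from 47.7% ± 5.85 in SW480 to 27.7% ± 2.92 in SW480-B and 14.1% ± 0.857 in SW480-Bsg (SD, n = 3).

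TBL1XR1 (chr3:176737128-176945788, minus strand) encodes a component of nuclear corepressor complexes that takes part in exchanging them for coactivators and that binds β-catenin. It was at 131, 207 and 234 CPM in SW480, 315, 304 and 234 CPM in SW480-B and 94.8, 110.0 and 107 CPM in SW480-Bsg. SW480-Bsg lay below both other lines, and replicate 3 of SW480-B was level with replicate 3 of SW480 (234.2 and 234 CPM). TBL1XR1 was 2.76-fold lower in SW480-Bsg than in SW480-B (log2 fold change −1.46, SE 0.181, adjusted p = 0.00364, edgeR quasi-likelihood F test, Benjamini-Hochberg adjusted), in all 6 fits that left out a library (−1.59 to −1.37). Against SW480 the values were −0.91 (SE 0.218, adjusted p = 0.0508) for SW480-Bsg, called only without SW480 replicate 1 (−1.09) among these 6 fits, and 0.59 (SE 0.268, adjusted p = 0.333) for SW480-B. Its paralog TBL1X was lower in replicates 2 and 3 of SW480-Bsg (9.56 and 11.8 CPM) than in any other library (at least 32.1 CPM), and was not called by edgeR as fitted here (−1.50, SE 0.495, adjusted p = 0.106 against SW480, and −1.52, adjusted p = 0.0747, against SW480-B), while 2 of 8 alternative settings called it lower in each of these comparisons. NCOR1, HDAC3 and GPS2, subunits of the same complexes, were not called in any comparison. Over the 6 genes listed with TBL1XR1, DESeq2 called 1, 0 and 2 in SW480-Bsg and SW480-B against SW480 and between the derivatives, where edgeR called 0, 0 and 1, and 3, 0 and 2 had an unadjusted p under 0.05. No gene with its start within 1 Mb of TBL1XR1 or TLE1 passed the filter on low counts.

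Of all genes with a mean of at least 1 CPM, TBL1XR1 had the pattern closest to LEF1, with a root mean square difference of 0.229 between centered log2(CPM + 0.5) values over 9 libraries. It was followed by RASGRP1, PPFIBP1, CCR3 and CXADR at 0.231 to 0.257. These libraries come from 3 lines, so the likeness reflects few independent points and has no p.

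**Figure D3:**
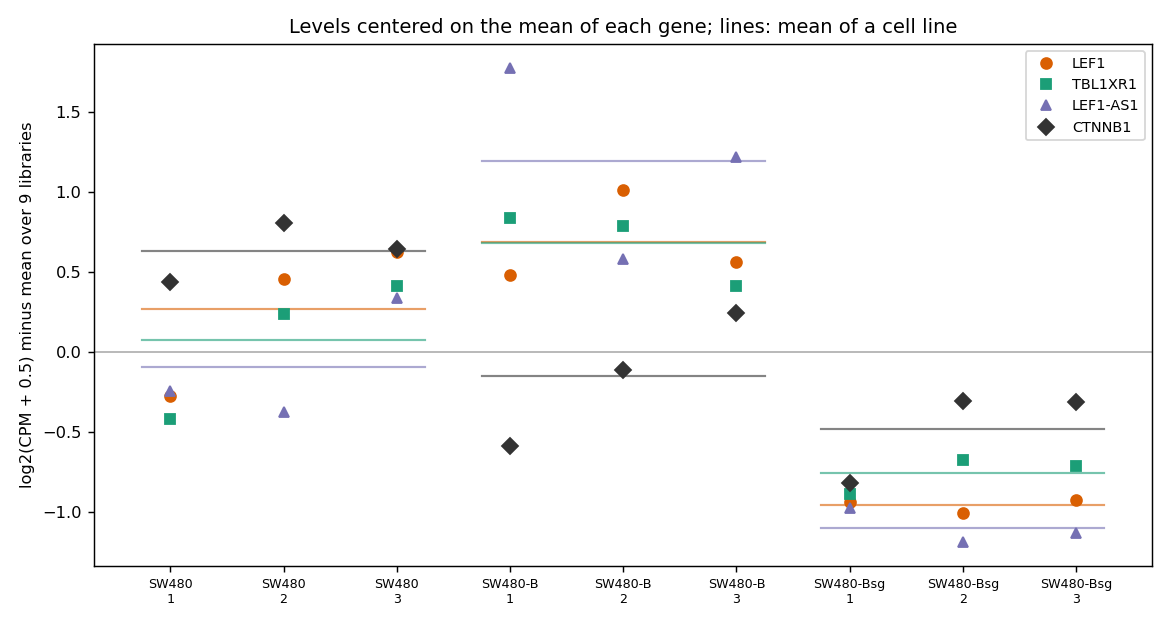
log2(CPM + 0.5) of LEF1, TBL1XR1, LEF1-AS1 and CTNNB1 in each library minus the mean of the gene over 9 libraries, with horizontal lines at the mean of each line; in SW480-B the lines of LEF1 and TBL1XR1 coincide. LEF1, TBL1XR1 and LEF1-AS1 are highest in SW480-B and lowest in SW480-Bsg, while CTNNB1 is highest in SW480.

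**Figure D4:**
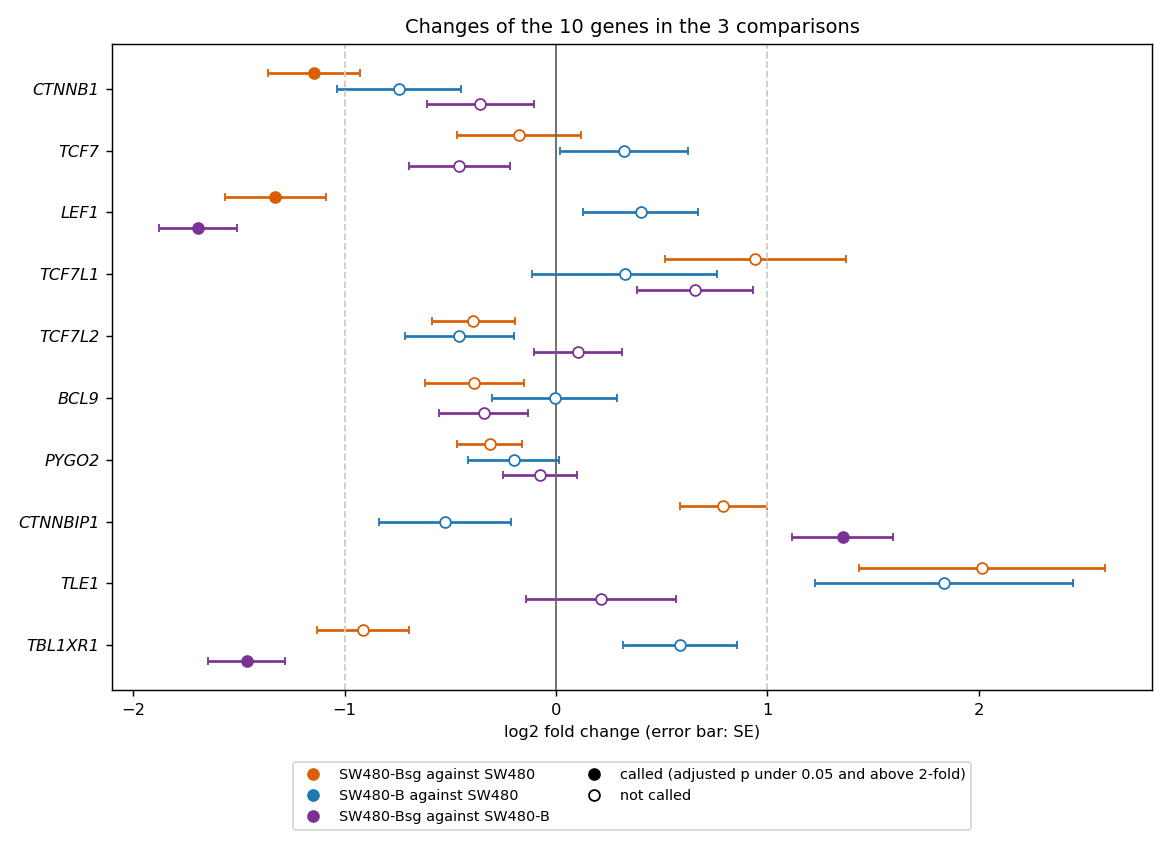
log2 fold change with its SE for the 10 genes in the 3 comparisons, with filled points for called genes and dashed lines at 2-fold. The called points are CTNNB1 and LEF1 against SW480 and LEF1, TBL1XR1 and CTNNBIP1 between the derivatives, all for SW480-Bsg.

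Counted over the 10 genes, every SW480-Bsg library was lower than every SW480 library for 4 (CTNNB1, LEF1, TBL1XR1, PYGO2) and higher for 2 (CTNNBIP1, TLE1), and 18.6% and 19.1% of all genes tested were separated in these directions. In SW480-B against SW480, 2 were lower in every library (CTNNB1, CTNNBIP1) and 2 higher (TLE1, TBL1XR1), beside 10.8% and 11.7% of all genes. In SW480-Bsg against SW480-B, 2 were lower (LEF1, TBL1XR1) and 1 was higher (CTNNBIP1), beside 15.5% and 14.9%. Set side by side, CTNNB1 was lower and TLE1 higher than SW480 in every library of both derivatives. TBL1XR1 and CTNNBIP1 were separated from SW480 in opposite directions in SW480-B and SW480-Bsg, but none of these 4 differences from SW480 was called, and that of TBL1XR1 in SW480-B rested on 234.2 against 234 CPM in the closest libraries. Both comparisons use the same SW480 libraries, and the share of all genes separated alike or oppositely in both was not counted.

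Kinases that act on TCF/LEF factors were listed with PIAS4, a SUMO ligase. TNIK, which phosphorylates TCF7L2, was at 109, 105 and 81.2 CPM in SW480, 99.4, 124 and 91.7 CPM in SW480-B and 35.9, 42.3 and 43.7 CPM in SW480-Bsg, which did not overlap the other lines. It was called lower in SW480-Bsg against SW480 (log2 fold change −1.32, SE 0.18, adjusted p = 0.0136, edgeR quasi-likelihood F test, Benjamini-Hochberg adjusted; 2 of 6 fits that left out a library) and against SW480-B (−1.38, adjusted p = 0.00385; 6 of 6). HIPK2 was called lower against SW480 (−1.45, adjusted p = 0.042; 1 of 6), and NLK against SW480-B (−1.19, adjusted p = 0.00703; 6 of 6). NLK was at 45.7, 62.8 and 127 CPM in SW480, 175, 149 and 124 CPM in SW480-B and 62.4, 67.1 and 68.8 CPM in SW480-Bsg. Its levels in SW480-Bsg thus lay within the range of SW480, and NLK was not called against SW480 in either derivative. PIAS4 was not called in any comparison. The median of the 4 genes was −0.80 in SW480-Bsg and −0.06 in SW480-B against SW480.

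Of 11 listed coactivators bound by β-catenin, including CREBBP, EP300, SMARCA4 and subunits of the PAF1 complex, none was called in any comparison by edgeR or DESeq2, and 2, 1 and 0 had an unadjusted p under 0.05 in SW480-Bsg and SW480-B against SW480 and between the derivatives. Their medians of −0.11 and −0.10 against SW480 were close to those of all genes. At an adjusted p under 0.05 without the 2-fold limit, CARM1, an arginine methyltransferase, was lower in SW480-Bsg than in SW480 (−0.71, adjusted p = 0.0362, edgeR quasi-likelihood F test, Benjamini-Hochberg adjusted).

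In the destruction complex and its ubiquitin ligase, 2 of 10 genes tested were called lower in SW480-Bsg against SW480, beside 4.66% of all genes. These were AXIN2, a scaffold that is also a β-catenin target (−1.71, SE 0.306, adjusted p = 0.0255, edgeR quasi-likelihood F test, Benjamini-Hochberg adjusted), and AMER1, which binds APC (−1.88, SE 0.226, adjusted p = 0.00963), each kept in 2 of 6 fits that left out a library. In SW480-Bsg against SW480-B, AXIN2 alone of the 10 was called lower, in 6 of 6 such fits (−1.85 to −1.42). There, 4.37% of all genes tested were called lower. APC, AXIN1, GSK3A, GSK3B, CSNK1A1, BTRC and FBXW11 were not called in any comparison. None of the 10 was called by edgeR as fitted here in SW480-B against SW480, with 2 at an unadjusted p under 0.05 and 1 called by DESeq2. AMER1 was called lower there in 3 of 7 alternative settings, a number that counts DESeq2 as a setting. It was also called in 1 of 6 fits that left out a library, at −1.27 to −0.93 over these fits. Among the junctional partners of β-catenin, CTNNA1, encoding α-catenin, was lower in SW480-Bsg than in SW480-B (−1.06, adjusted p = 0.0163; 3 of 6 such fits). Against SW480 it was −0.90 (adjusted p = 0.0286), short of 2-fold. CTNNA2 was called lower against SW480 from 0.507 to 1.57 CPM there to 1 count in all SW480-Bsg libraries together, in 2 of 6 such fits. CDH1, CDH3, JUP and CTNND1 were not called in any comparison. All 6 junctional genes tested lay below 0 in SW480-Bsg against SW480, with a median of −0.81 beside −0.05 over all genes. Of these, 4 had an unadjusted p under 0.05, and DESeq2 called 1. In SW480-B against SW480, 1 of 6 had an unadjusted p under 0.05, at a median of −0.02.

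Target genes were described at the RNA level, and pathway activity was not measured here. The 13 listed β-catenin/TCF targets include LEF1 and TCF7, and earlier results of these data had already covered them in part. In SW480-Bsg against SW480, 8 were called lower and 0 higher, beside 4.66% and 1.89% of all genes tested. Their median was −1.41 on the log2 scale, beside −0.05 over all genes tested. In SW480-B against SW480, 2 were called lower, NOTUM and LGR5, beside 1.25% of all genes tested. The median there was 0.02, beside −0.0039 over all genes tested, with 6 of the 13 below 0 and 7 above. An unadjusted p under 0.05 was found for 6 of 13 in SW480-B, and DESeq2 called 4. ASCL2 was called lower in SW480-B in 3 of 7 alternative settings and NKD1 in 2 of 7, and neither was called as fitted here. SP5, a direct WNT target, was at 142.5, 131.5 and 137 CPM in SW480, 81.5, 69.0 and 88.5 CPM in SW480-B and 18.4, 18.2 and 19.9 CPM in SW480-Bsg. ASCL2, the stem cell factor, was at 58.6, 45.0 and 54.3 CPM, then 24.0, 22.8 and 29.3 CPM, then 3.21, 5.46 and 4.58 CPM in the same order. For both genes the lines did not overlap, and both were called in all 6 fits that left out a library against SW480, with log2 fold changes of −2.91 (SE 0.146, adjusted p = 0.00281, edgeR quasi-likelihood F test, Benjamini-Hochberg adjusted) and −3.62 (SE 0.261, adjusted p = 0.00473). AXIN2, the feedback inhibitor, was at 492, 492 and 630 CPM in SW480, 572, 546 and 532.5 CPM in SW480-B and 98.9, 205 and 205 CPM in SW480-Bsg.

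NKD1 (−2.75, adjusted p = 0.0127, edgeR quasi-likelihood F test, Benjamini-Hochberg adjusted), NOTUM (−3.09, adjusted p = 0.0268) and ZNRF3 (−1.41, adjusted p = 0.0158), all feedback inhibitors of WNT signaling, completed the calls in SW480-Bsg together with LGR5, kept in 2 or 3 of 6 fits that left out a library. LGR5, the stem cell receptor, was at 2.28 to 14.2 CPM in SW480 and at most at 0.169 CPM in any library of the derivatives. In SW480-B its 3 libraries held 3 counts in all, so that a fitted fold depends on the prior count. NOTUM in SW480-B was −1.89 (adjusted p = 0.049), a call kept in 1 of 6 fits that left out a library. RNF43, DKK1, CCND1 and TCF7 were not called in any comparison, and CD44 was called lower in SW480-Bsg only against SW480-B (−1.31, adjusted p = 0.0101). In that comparison 6 of 12 tested targets were called lower and 0 higher, beside 4.37% and 2.31% of all genes tested. Of the 7 targets other than LEF1 called against SW480, only SP5 and ASCL2 were called without SW480 replicate 2 or without SW480-Bsg replicate 2 or 3, and 3 targets were called without SW480-Bsg replicate 1.

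**Figure D5:**
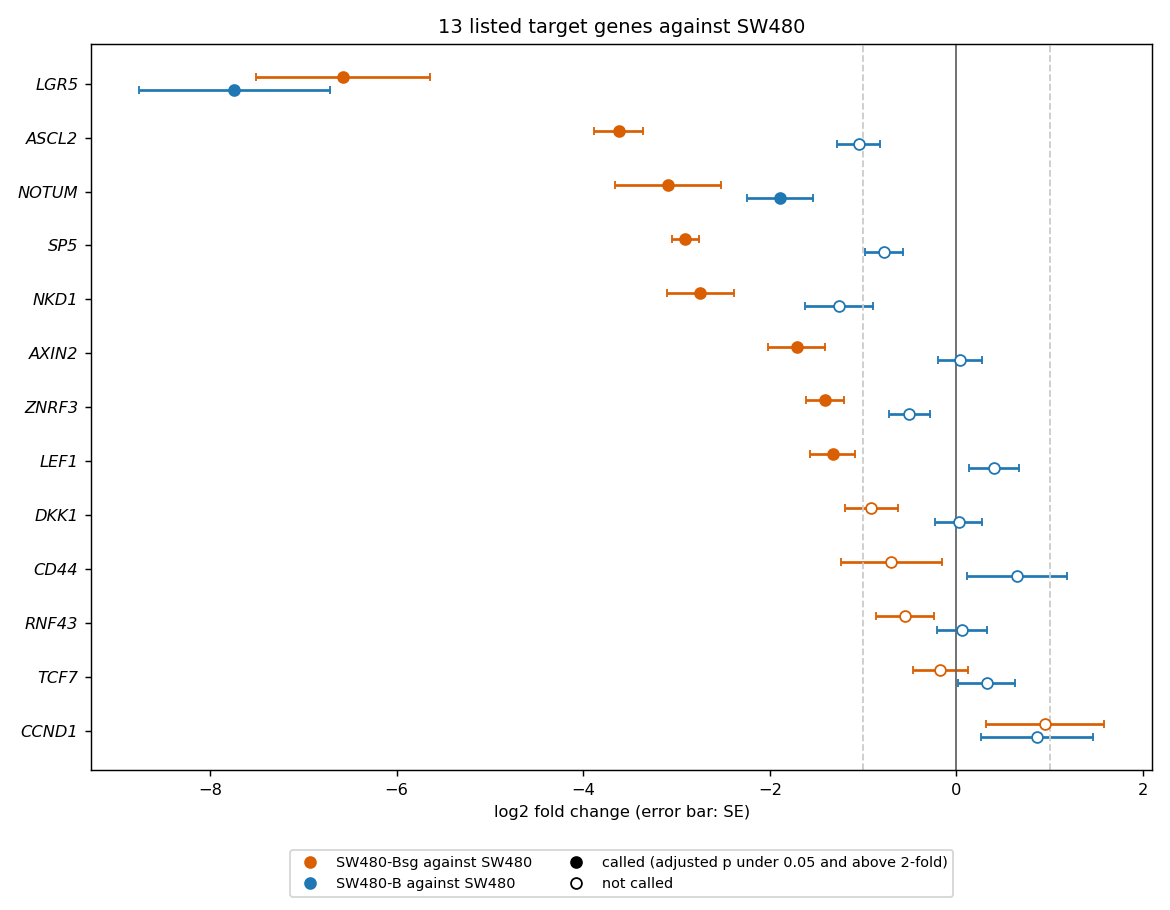
log2 fold change with its SE for the 13 listed target genes in SW480-Bsg and SW480-B against SW480, filled where called, with dashed lines at 2-fold. In SW480-Bsg 12 of 13 lie below 0 and CCND1 above, and in SW480-B 6 lie below and 7 above; the LGR5 values rest on few counts in the derivatives.

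Some epithelial markers differed between the lines as well. Of 9 listed, VIL1, CDX2 and CDH17 were called lower in SW480-Bsg against SW480 (VIL1 and CDH17 also in SW480-B), EPCAM, CDH1, KRT8 and KRT18 were not, and KRT20 and CDX1 were too low to test. The sum of all 9 ranged from 7220 to 9490 CPM in SW480, from 6170 to 10300 CPM in SW480-B and from 5770 to 7410 CPM in SW480-Bsg. CDX2, an intestinal identity factor, was at 28.9, 30.9 and 41.7 CPM in SW480, 58.3, 67.8 and 59.2 CPM in SW480-B and 5.51, 2.75 and 2.41 CPM in SW480-Bsg. Of the fibroblast markers, COL1A1 was called higher and LUM lower in SW480-Bsg against SW480. The part of these markers in the changes of the 10 genes was not tested.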

How the data were processed

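RNA of 3 SW480 lines (3 libraries each) was sequenced by the authors, aligned to GRCh37 (the file headers name STAR) and deposited as counts, that is, whole numbers of fragments per Ensembl gene, not normalized. The counting tool and its strand setting are not given in the sources used here. Lines of the files that name no gene (no feature, 5.22% to 9.93% of a library; ambiguous, 3.09% to 3.44%) were left out. The deposited normalized coverage along transcripts, a signal, gave a ratio of the 5′-most to the 3′-most stretch of 0.817 to 0.868. Symbols were matched for 55665 identifiers (99.4% of counts).

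Lines were compared in pairs over 6 libraries with edgeR 4.0.16 in R 4.3.3 (quasi-likelihood; filterByExpr, least count 10, least total 15; TMM; glmQLFit, robust; glmQLFTest), with Benjamini-Hochberg adjustment over all genes tested. Standard errors are the log2 fold change over the square root of F. CPM used TMM factors over all 9 libraries. Per-length levels (TPM) used the union of exons of GENCODE for GRCh37, and likeness a pseudocount of 0.5. All 10 genes were named, the listed genes called (at most 4 per list and comparison), whole TLE, BCL9/Pygopus and TBL1 families, and the 5 genes most like CTNNB1, LEF1 and TCF7; others named as not called, CARM1, CTNNA1 against SW480, and CDX2 were chosen after their values were seen. The members and lists were chosen with earlier results of these data known. The script was tested on simulated data. Alternatives were RLE factors, other filters, 1 fit of all libraries, a replicate block, DESeq2 1.42.0, GC and length offsets, no fold limit, summed replicates and leaving out each library. Same-numbered libraries of SW480-B and SW480 deviated together (correlations of deviations from the line means 0.314, 0.448 and 0.408), which meets the rule for pairing, and the block changed no call of the 10 genes. PECAM1, an endothelial marker, was not matched. A promoter sequence and a listed gene are not reported here.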

Additional observations from a re-analysis of the deposited data

Results flagged for a closer look

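Effects of the derivatives differed for 3 of the 10 genes, by the test of SW480-Bsg against SW480-B, which compares their effects against the shared SW480 libraries. Each comparison was a separate fit of 6 libraries with its own filter and scaling, so a tested difference need not equal the subtracted effects exactly. For LEF1 the difference was −1.69 (adjusted p = 0.00231, edgeR quasi-likelihood F test, Benjamini-Hochberg adjusted), from −1.33 in SW480-Bsg and 0.40 in SW480-B. For TBL1XR1 it was −1.46 (adjusted p = 0.00364), from −0.91 and 0.59. For CTNNBIP1 it was 1.36 (adjusted p = 0.0123), from 0.79 and −0.52. In each case every library of one derivative lay beyond every library of the other. Over all genes tested, 15.5% were separated lower and 14.9% higher in this way. The 3 genes were picked by their calls in this same comparison, so their separation adds no further support. The CTNNBIP1 call was lost without SW480-Bsg replicate 2 or 3.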

How the results depend on the processing

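Of the 10 genes, 2 were called in SW480-Bsg against SW480. With GC and length offsets 1 was, with SW480-Bsg replicates 2 and 3 added up 0, and with 1 library left out 0 to 4 (0 without SW480 replicate 2 or without any replicate of SW480-Bsg, 4 without SW480 replicate 1). In SW480-B against SW480 none was called, except 1 with DESeq2, and in SW480-Bsg against SW480-B 3 were called and 2 to 3 with a library left out. With the replicate block the counts were 2, 0 and 3, as without it, and it changed no other call of these genes. The numbers did not pair SW480-Bsg with SW480 (correlations 0.335, −0.0134 and 0.331) or with SW480-B (0.295, −0.116 and 0.323).

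The settings for listed genes were chosen after seeing the data. Against SW480, 14 listed genes other than the 10 were called in SW480-Bsg, 7 of them targets. With its replicates 2 and 3 summed 2 and 2 were called, and with a library left out 2 to 15 and 2 to 8. In SW480-B 2 listed genes, both targets, were called; with no filter 5 and 4, with the CPM filter 1 and 1, with DESeq2 7 and 4, with GC and length offsets 1 and 1, and with a library left out 0 to 5 and 0 to 3. Over all genes, calls higher and lower against SW480 were 304 and 751 for SW480-Bsg, 818 and 1282 with DESeq2, 516 and 1064 in 1 fit of all libraries, 20 and 77 with replicates summed, 1 and 7 without SW480 replicate 2, and 961 and 1698 without SW480 replicate 3. For SW480-B they were 15 and 201, 362 and 591 with DESeq2, 198 and 537 with no filter, 92 and 360 in 1 fit of all libraries, 56 and 263 with the replicate block, 0 and 0 without its replicate 1 or 2, and 226 and 695 without SW480 replicate 3. Between the derivatives 366 and 693 became 181 and 473 in 1 fit of all libraries and 141 and 305 with replicates summed, and ranged from 135 and 285 without SW480-Bsg replicate 3 to 607 and 941 without SW480-B replicate 3. With the longest transcript as length, levels of the 10 genes in SW480 moved beyond the SD for CTNNB1 (938 TPM), TCF7 (50 TPM) and PYGO2 (54.8 TPM), and those of the other family members for TLE3 (90.7 TPM), BCL9L (61.1 TPM) and TBL1X (20.2 TPM). No direction of a called gene among the 10 was reversed. Counts of the 10 genes were 34 or more in every library. Counting error was not small beside the spread between libraries in every case. In SW480-Bsg, LEF1 held 646, 613 and 649 counts and BCL9 held 627, 655 and 657, a spread no wider than counting error.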
